A study of Mus musculus with 34 samples.

Results

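Binding of the histone deacetylase HDAC3, the homeobox factor PROX1 and the liver transcription factor HNF4α was examined at 38 genes of the nuclear receptor family, out of 22380 protein-coding genes of the mouse. The genes were taken by name, with earlier results of these data known but by a rule that uses no measured value, and for each one the window from 50 kb upstream of the gene start to 2 kb past the gene end was searched for peaks. They were placed in 3 groups from general knowledge of where the receptors act, not from expression in these livers. There were 8 receptors of the liver, 12 that are broadly expressed or inducible, and 18 that act mainly in other tissues.

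The peaks came from ChIP-seq, in which chromatin is cross-linked, sheared, precipitated with an antibody and sequenced. Male C57B/6 mice aged 10 weeks gave livers at zeitgeber time 10, that is 10 h after lights on. The labels give 3 HDAC3 and 3 PROX1 libraries from control mice, and 2 HNF4α libraries from mice that carry *Hnf4α* floxed alleles and were not made knockout. By the study's account, the floxed control livers had been infected with an adeno-associated virus that expresses EGFP. Replicates of each factor were pooled before peaks were called, so 1 list per factor was available, with no spread between livers and no read depth per peak, and whole liver holds cells other than hepatocytes. In the same windows, all 5 hepatocyte marker genes had a peak shared by HDAC3 and PROX1, as did 1 of 4 Kupffer cell or leukocyte, 1 of 3 endothelial, 1 of 3 stellate, 0 of 3 cholangiocyte and 2 of 3 neuronal markers, beside 38.4% of all protein-coding genes. The 2 neuronal genes, *Rbfox3* and *Syt1*, have long windows of 473.8 and 565.3 kb.

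Nuclear receptors are transcription factors, many of which are switched by small lipophilic ligands such as bile acids, retinoids, thyroid hormone and steroids. Without an agonist, several of them bind corepressors such as NCOR1, whose complex holds HDAC3, while ligand exchanges these for coactivators. Many bind DNA as partners of a retinoid X receptor, on paired copies of the hexamer AGGTCA whose order and spacing favour particular pairs. HNF4α is itself a member of the family and prefers the direct repeat with a single base between the hexamers. PROX1 is a homeobox protein of hepatocytes and other cells that can act as a corepressor.

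An HDAC3 and a PROX1 peak with identical coordinates in the deposited lists were called co-bound. By the study's account, shared peaks overlapped and needed a lower signal for the other factor than the limit for its own peaks. A peak was said to have HNF4α where a single HNF4α peak covered at least 50% of it. The other peaks of these factors were called HDAC3-only and PROX1-only. An HNF4α peak was said to be covered by HDAC3 or PROX1 where a peak of that factor covered at least 50% of the HNF4α peak. Peaks that several of the results below turn on are printed here, namely the co-bound peaks of highest HNF4α score in 4 genes (*Nr3c1* is not shown) and the HDAC3-only peaks within 1 kb of a receptor start site. Their sequences on the plus strand of mm9 (NCBIM37), 5′ to 3′ and without annotated UTR bases, were as follows. Capitals mark a match to the HNF4 core CAAAGTCCA with at most 1 mismatch in *Nr1h4*. In *Nr1i3* they mark paired AGGTCA hexamers facing each other with 1 base between them, matched with 2 mismatches. In *Rarb* they mark paired AGTTCA hexamers in the same direction with 5 bases between them, matched with 1 mismatch.
Nr1h4, co-bound, chr10:88921566-88921765: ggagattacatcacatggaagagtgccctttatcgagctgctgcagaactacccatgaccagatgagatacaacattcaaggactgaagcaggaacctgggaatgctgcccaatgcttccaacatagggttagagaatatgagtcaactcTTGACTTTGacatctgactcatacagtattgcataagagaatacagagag
Nr1i3, co-bound, chr1:173144001-173144100: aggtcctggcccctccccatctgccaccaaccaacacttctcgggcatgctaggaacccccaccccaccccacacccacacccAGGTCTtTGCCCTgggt
Nr3c2, co-bound, chr8:79570642-79570841: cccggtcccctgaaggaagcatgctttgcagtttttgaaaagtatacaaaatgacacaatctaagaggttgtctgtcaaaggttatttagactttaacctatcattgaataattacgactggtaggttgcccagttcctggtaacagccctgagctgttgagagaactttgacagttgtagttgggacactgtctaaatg
Thrb, co-bound, chr14:18580429-18580628: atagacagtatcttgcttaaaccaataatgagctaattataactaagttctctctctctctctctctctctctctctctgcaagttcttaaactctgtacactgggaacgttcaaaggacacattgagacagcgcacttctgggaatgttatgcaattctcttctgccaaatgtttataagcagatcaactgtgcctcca
Rarb, HDAC3-only, chr14:17407987-17408123: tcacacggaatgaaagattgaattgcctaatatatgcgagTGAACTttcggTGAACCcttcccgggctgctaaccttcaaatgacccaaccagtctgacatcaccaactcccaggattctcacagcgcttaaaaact
Rxrg, HDAC3-only, chr1:169548112-169548311: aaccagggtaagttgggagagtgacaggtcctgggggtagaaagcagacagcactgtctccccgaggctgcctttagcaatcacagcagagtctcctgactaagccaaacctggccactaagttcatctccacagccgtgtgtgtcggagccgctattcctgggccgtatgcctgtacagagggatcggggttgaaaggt

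The windows of the 38 receptors held 181 different HDAC3 or PROX1 peaks, and no peak lay in more than 1 window. Of these, 120 were co-bound, 48 were PROX1-only and 13 were HDAC3-only. A co-bound peak was found at 22 of 38 receptor genes, while 38.4% of all protein-coding genes had one in a window built the same way. A co-bound peak with HNF4α was found at 20 receptor genes, against 31.1% of all genes. For single-factor peaks, 18 receptor genes had a PROX1-only peak against 25.2% of all genes, and 9 had an HDAC3-only peak against 7.40%. HNF4α had a peak in 27 of the 38 windows, and in 49.7% of all windows. Receptor windows were longer than most, with a median of 100.2 kb against 67.4 kb for all genes, and longer windows hold a co-bound peak more often, as described below.

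The groups of receptors differed in their counts. The 8 liver receptors held 71 of the 120 co-bound peaks, and 7 of these 8 genes had at least 1. The 12 broad or inducible receptors held 26 co-bound peaks at 8 genes. The 18 receptors of other tissues held 23 at 7 genes, 5 of them in windows longer than 150 kb. At 8 genes none of the 3 factors had a peak, and these were *Nr1h2*, *Nr2c2* and *Nr4a3* of the broad or inducible group and *Esr2*, *Pgr*, *Nr2e1*, *Rorb* and *Hnf4g* of the other-tissue group. The matching share over all genes is not given here, so these 8 cannot be called many or few.

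**Figure D1:**
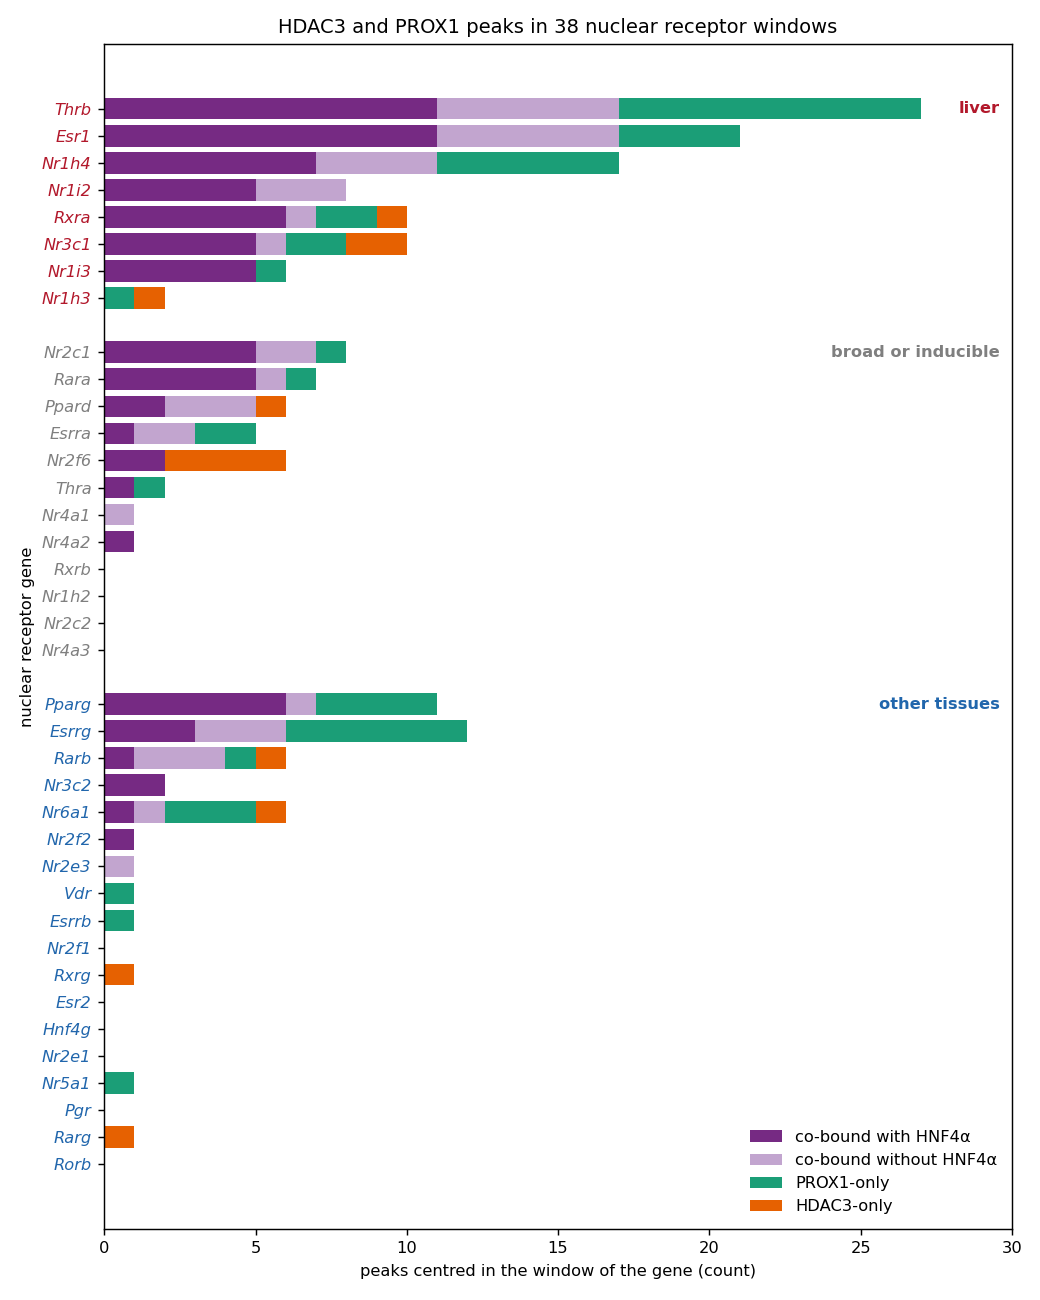
Number of HDAC3 and PROX1 peaks (x axis, count) centred in the window of each of the 38 receptor genes (y axis), grouped by where the receptor acts and split by peak class. *Thrb* and *Esr1* had 17 co-bound peaks each, and *Nr1h3* was the liver receptor with 0.

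Per length of window, the liver receptors had a median of 4.79 co-bound peaks per 100 kb, with a range over genes from 0 to 8.51. Broad or inducible receptors had a median of 1.56 (range 0 to 6.92), and receptors of other tissues a median of 0 (range 0 to 3.86). The mean over all protein-coding genes was 1.37 per 100 kb, the median 0 and the 90th percentile 4.72. *Nr1i3*, *Nr1h4*, *Nr1i2* and *Rxra* of the liver group and *Nr2c1*, *Rara* and *Esrra* of the broad group lay above that percentile, whereas 0 of 18 receptors of other tissues did. The groups overlapped, since *Nr1h3* had no co-bound peak and *Pparg* had a higher density than *Esr1*. With 1 pooled list per factor these values are a description and carry no test.

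**Figure D2:**
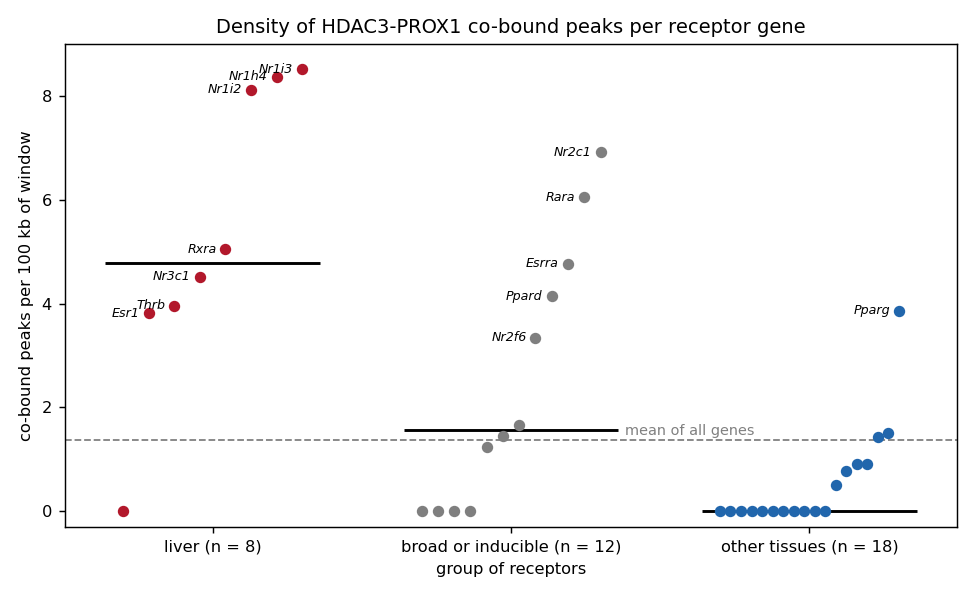
Co-bound peaks per 100 kb of window (y axis) for each receptor gene (points) in the 3 groups (x axis), with the group median as a solid line and the mean of all protein-coding genes, 1.37, as a dashed line. Densities at or above 8.12 were reached by *Nr1i2*, *Nr1h4* and *Nr1i3*, and *Pparg* stood above the other receptors of its group at 3.86.

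Window length was taken into account by comparing genes of like length. Among windows under 75 kb, 31.3% of all genes had a co-bound peak, as did 1 of 2 liver receptors, 4 of 6 broad or inducible receptors and 2 of 6 receptors of other tissues. In windows of 75 to 150 kb, where all genes had 46.7%, the counts were 4 of 4 liver receptors, 4 of 6 broad or inducible receptors and 0 of 4 receptors of other tissues. At 150 kb and above, where all genes had 55.1%, they were 2 of 2 liver receptors and 5 of 8 receptors of other tissues. The low density in the other-tissue group thus stood beside peaks that were spread over long genes. Of its 23 co-bound peaks, 16 were centred over 100 kb from the gene start, that is the 5′ end. Some of these lay near an internal start site, such as the *Nr6a1* peak 31 bp from one. To the nearest start site of the same gene the median distance was 44.7 kb. In liver receptors it was 20.8 kb and in broad or inducible ones 6.23 kb.

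Among the liver receptors that sense bile acids and foreign compounds, *Nr1h4* encodes FXR, the bile acid receptor, and lies on the minus strand at chr10:88916979-88996330. Its window held 11 co-bound peaks, 7 of them with HNF4α, and 6 PROX1-only peaks. The highest HNF4α score among all co-bound receptor peaks, 117.8, was at the intronic *Nr1h4* peak printed above, 74.7 kb from the gene start, and the next in this gene, 89.1, was 62.7 kb from it. These peaks were nearer to the start site of the neighbour *Gas2l3* than to one of *Nr1h4*, although both lie inside *Nr1h4*. Within 1 kb of the start sites the picture was the reverse. Co-bound peaks at chr10:88996330-88996529, at the upstream start site, and at chr10:88969358-88969557 and chr10:88969747-88969946, at the downstream one, were all without HNF4α, and a PROX1-only peak 124 bp from the upstream site also lacked it. Just past that 1 kb limit, the co-bound peak chr10:88994810-88995009, 1.42 kb into the gene, had HNF4α with a score of 76.3.

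*Nr1i2* encodes PXR, a sensor of drugs and steroids (minus strand, chr16:38248409-38294910). All of its 8 co-bound peaks lay within 15 kb of the start site, 7 in the gene and 1 at the promoter, and 5 had HNF4α. The promoter peak, chr16:38294865-38295064, was centred 55 bp from the start site with an HNF4α score of 84.8, and the highest score, 91.4, was in the intronic peak 14.9 kb into the gene. HNF4α alone, without HDAC3 or PROX1, had 4 further peaks in the window with scores from 30.6 to 45.7.

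*Nr1i3* encodes CAR, the partner of PXR in the response to foreign compounds (plus strand, chr1:173144101-173150832). Each of its 5 co-bound peaks had HNF4α. One of them, chr1:173144001-173144200, was centred on the start site itself with a score of 112.6. In the sequence above, the inverted pair of hexamers in this peak, a match with the 2 mismatches allowed, ended 5 bp upstream of the start site. Peaks of nearly the same score lay at -9.50 kb (107.9) and -44.9 kb (111.7) from the gene start. Those, and another upstream peak, were nearer to the start sites of other genes, so 2 of the 5 had *Nr1i3* as the nearest gene.

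*Nr1h3* encodes LXRα, the oxysterol receptor (minus strand, chr2:91024218-91042991), and differed from the other liver receptors. It had 0 co-bound peaks, 1 HDAC3-only peak at -39.9 kb and 1 PROX1-only peak at 0.400 kb from the gene start, the latter with HNF4α and nearer to the start site of the neighbour *Acp2*. HNF4α nevertheless had 4 peaks in the window. The strongest, chr2:91035231-91035392 with a score of 90.5, was centred 4 bp from a protein-coding start site of *Nr1h3* and was covered neither by HDAC3 nor by PROX1. Of the 17 HNF4α peaks with a score of 80 or more in liver receptor windows it was the only one without both factors. Its paralogue *Nr1h2*, which encodes the broadly expressed LXRβ, had no peak of any factor.

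**Figure D3:**
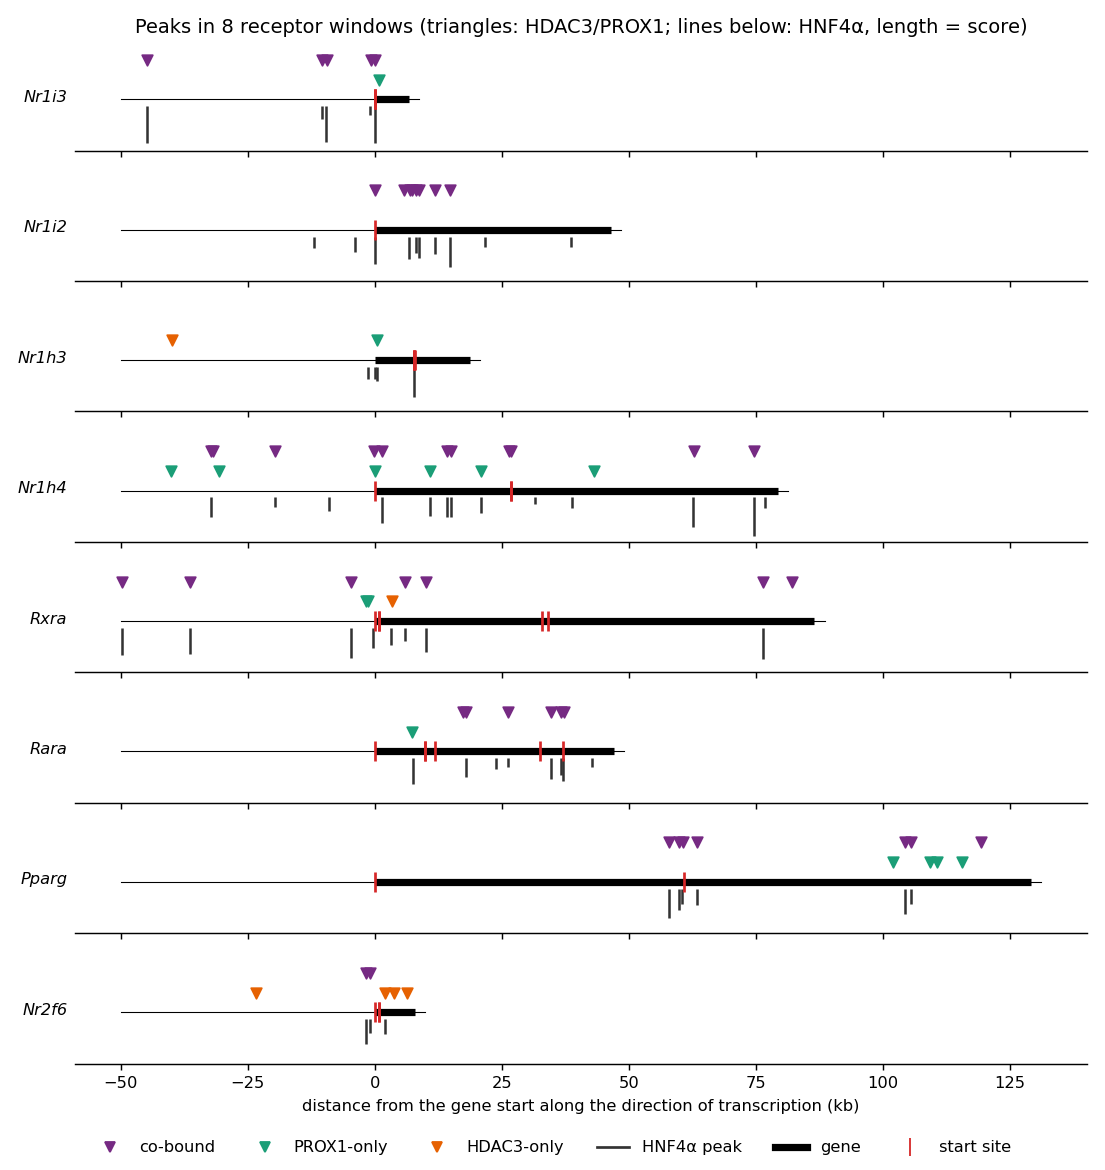
Peaks in 8 receptor windows by distance from the gene start in the direction of transcription (x axis, kb), 1 row per gene. Triangles are HDAC3 and PROX1 peaks by class, lines below the gene are HNF4α peaks with length in proportion to their score, and red ticks are protein-coding start sites. *Nr1i3* had HNF4α at each of its 5 co-bound peaks, *Nr1h3* had a long HNF4α line at its start sites without a triangle, and 4 co-bound peaks of *Pparg* lay around its second start site.

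*Rxra* encodes RXRα, the common partner of FXR, PXR, CAR and LXR (plus strand, chr2:27531960-27618477). Of its 7 co-bound peaks, 6 had HNF4α, with scores from 39.1 to 93.3, and the nearest to the start was at -4.70 kb. None lay in the promoter. There, an HNF4α peak 300 bp upstream of the gene start, with a score of 61.3, was covered by neither factor. A single HDAC3-only peak 3.40 kb into the gene overlapped an HNF4α peak by 39 bp, under the limit of 100 bp that 50% of a peak amounts to.

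Hormone receptors made up the rest of the liver group. *Thrb* encodes thyroid hormone receptor β, the main form in hepatocytes (plus strand, chr14:18493474-18870602). It had 17 co-bound peaks, 11 with HNF4α, and 10 PROX1-only peaks, the most of any receptor, and 16 of these co-bound peaks were intronic. The highest score, 107.4, was at the peak printed above, 87.1 kb into the gene, which held none of the motifs searched. *Esr1*, which encodes oestrogen receptor α (minus strand, chr10:5340927-5734948), also had 17 co-bound peaks with 11 bound by HNF4α. At its promoter a co-bound peak, chr10:5734515-5734714, and a PROX1-only peak beside it lacked HNF4α, and the highest score, 98.5, was at an intronic peak 60.5 kb from the gene start. *Nr3c1* encodes the glucocorticoid receptor (minus strand, chr18:39570199-39650955). It had 6 co-bound peaks, 5 with HNF4α, of which the strongest had scores of 112.6 and 110.3 at 60.5 and 48.8 kb into the gene. Of its co-bound peaks within 1 kb of a start site, the one 933 bp away had HNF4α with a score of 40.1 and the one 299 bp away had none.

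In the broad or inducible group, co-bound peaks were concentrated at few genes. *Nr2c1*, which encodes the orphan receptor TR2, had 7, of which 5 had HNF4α with scores from 30.2 to 74.0. *Rara* encodes retinoic acid receptor α and had 6, of which 5 had HNF4α. Its promoter peaks, chr11:98825594-98825793 and chr11:98826203-98826402, lay at an internal start site 37.1 kb into the gene and had scores of 49.0 and 68.3, while the start site at the 5′ end of the gene had none. *Ppard*, which encodes a broadly expressed fatty acid receptor, had 5 co-bound peaks, all intronic, and 2 had HNF4α.

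*Esrra* encodes the oestrogen-related receptor α, a regulator of mitochondrial genes. Its window held 3 co-bound peaks, 1 with HNF4α, but all were nearer to the start sites of *Kcnk4* or *Gpr137*. A PROX1-only peak was centred 551 bp from an *Esrra* start site. *Nr2f6*, which encodes the orphan receptor EAR2, held 4 of the 13 HDAC3-only peaks, the most of any receptor. Of these, 2 were nearer to *Ocel1* or *Ankle1*, and 1 had HNF4α. Its 2 co-bound peaks lay at -0.886 and -1.76 kb from the gene start, with HNF4α scores of 41.9 and 76.3. *Thra*, *Nr4a1* and *Nr4a2* had 1 co-bound peak each, with HNF4α at *Thra* and *Nr4a2*, and *Rxrb* had only an HNF4α peak, at -32.1 kb with a score of 26.9.

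Among receptors of other tissues, *Pparg* had the most co-bound peaks. It encodes PPARγ, the fatty acid receptor of adipocytes, which is scarce in normal hepatocytes (plus strand, chr6:115311239-115440419). It had 7, of which 6 had HNF4α. Within 3 kb of the second start site, 60.8 kb into the gene and used for the adipocyte form of the protein, 4 co-bound peaks were centred, and each had HNF4α, with scores of 89.5, 64.6, 46.6 and 48.5 in the order of transcription. No peak of the 3 lists lay near the first start site. *Esrrg* had 6 co-bound peaks, 3 with HNF4α, over a window of 658.1 kb.

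*Nr3c2* encodes the mineralocorticoid receptor (plus strand, chr8:79423341-79768911). It had 8 HNF4α peaks, of which 2 were co-bound, and these lay in an intron 145.5 and 147.4 kb into the gene with scores of 84.8 and 108.8. Of the other HNF4α peaks in this window, 1 had a score of 88.6, 7.32 kb into the gene, and neither HDAC3 nor PROX1. *Nr2f2* encodes COUP-TFII, an orphan receptor of endothelium and mesenchyme, and had 1 co-bound peak with a score of 92.8. *Nr6a1*, which encodes germ cell nuclear factor, had 2, of which 1 lay 31 bp from an internal start site with a score of 50.9, and *Nr2e3*, a photoreceptor gene, had 1 without HNF4α.

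The retinoid receptors of other tissues, *Rarb*, *Rxrg* and *Rarg*, had 1 HDAC3-only peak each. *Rarb* encodes retinoic acid receptor β (minus strand, chr14:17263356-17651381). Its HDAC3-only peak, chr14:17407924-17408123, was centred 38 bp from the internal start site, 243.4 kb into the gene. The paired AGTTCA hexamers printed in capitals, chr14:17408027-17408043, lay on the minus strand 41 to 57 bp upstream of that site with 1 mismatch. This spacing is the type bound by a retinoic acid receptor with RXR, and the promoter is a textbook example of one that retinoic acid induces. The motif was searched for after the letters of this peak had been read. It was present in 0.745% of all 1208 HDAC3-only peaks, 0.444% of all co-bound peaks and 0 of the 120 co-bound receptor peaks. The 4 co-bound peaks elsewhere in *Rarb* were intronic, and 1 had HNF4α.

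*Rxrg* encodes RXRγ of muscle and brain (plus strand, chr1:169528515-169569754). Its 1 HDAC3-only peak was 228 bp from an internal start site, and an HNF4α peak with a score of 36.8 lay at that site without being covered by HDAC3. *Rarg* had 1 HDAC3-only peak, which was in the promoter of the neighbour *Mfsd5*. The vitamin D receptor gene *Vdr* and *Esrrb* had 1 PROX1-only peak each, both with HNF4α, and *Nr5a1* had 1 without it. *Nr2f1* had 1 HNF4α peak and no other.

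HNF4α covered 81 of the 120 co-bound receptor peaks, a share of 67.5% (95% Wilson interval 58.7 to 75.2). The interval covers counting error only. In all gene windows the share was 60.7%. By group, it was 70.4% in liver receptors (50 of 71, 59.0 to 79.8), 65.4% in broad or inducible receptors (17 of 26, 46.2 to 80.6) and 60.9% in receptors of other tissues (14 of 23, 40.8 to 77.8). Liver receptors exceeded receptors of other tissues by 9.55 percentage points, with a 95% Newcombe interval from -10.9 to 31.7 and two-sided p = 0.39 by the chi-square test of Pearson, applied to peaks. By the same chi-square test, the remaining pairs differed by 5.04 points (liver against broad, -14.0 to 26.4, p = 0.63) and 4.52 points (broad against other, -21.1 to 29.7, p = 0.74). So the groups did not differ detectably in this share, and the intervals leave room for differences of over 20 points in either direction for the last pair. Peaks of 1 gene share a locus and are not replicates. A single gene moved the first difference by over 1.5 times, which was 20.4 points without *Pparg* (chi-square p = 0.12) and 2.0 points without *Rarb* (p = 0.87).

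At single-factor peaks of the receptors, HNF4α covered 17 of 48 PROX1-only peaks (35.4%, 23.4 to 49.6) and 1 of 13 HDAC3-only peaks, against 36.7% and 14.0% in the whole lists. By place, 83 of the 120 co-bound peaks were intronic, 18 intergenic, 16 within 1 kb of a start site and 3 exonic, and 111 had the receptor's own start site as the nearest. The share with HNF4α was 68.8% (11 of 16, 44.4 to 85.8) at promoters and 67.3% (70 of 104, 57.8 to 75.6) elsewhere. In the whole co-bound list it was 54.7% at promoters and 61.9% elsewhere. Within the liver group, 4 of 9 promoter peaks and 46 of 62 others had HNF4α, while all 7 promoter peaks of the other groups had it. Of the liver promoter peaks without HNF4α, 3 were at *Nr1h4*. These counts are small, and no test was run on this split, which was added after seeing the data.

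**Figure D4:**
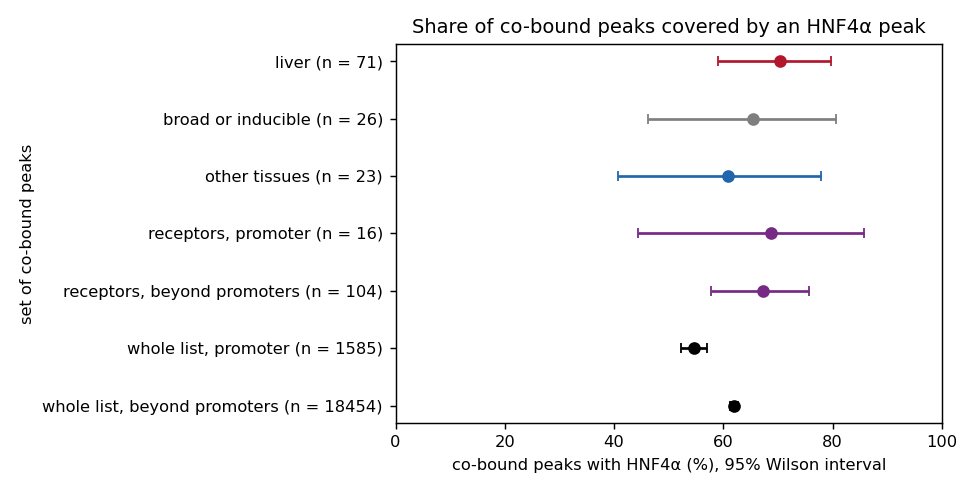
Share of co-bound peaks covered by an HNF4α peak (x axis, %, with 95% Wilson intervals that cover counting error only) for each group of receptors, for receptor peaks by place, and for the whole list by place. The intervals of the 3 groups overlap, with 70.4%, 65.4% and 60.9%.

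The share depended on the limit of cover. With 75% of the peak to be covered it was 37.5% over all receptors, against 67.5% at 50%, and with 25% it was 70.8%. HNF4α peaks were 85 to 168 bp wide, so the narrower ones could not reach 75% of a 200 bp peak at any position. HNF4α covered some but under 100 bp of 7 receptor peaks, 6 of them co-bound. Just outside the limit were 96 bp at *Thrb*, 92 bp at *Rarb* and 88 bp at *Nr1i2*. The HNF4α peaks at *Thrb* and *Nr1i2* were 96 and 88 bp wide and lay wholly inside the co-bound peak. Being narrower than 100 bp, they could not reach the limit, so these co-bound peaks count as without HNF4α through width alone. Just inside were 103 bp at a co-bound *Nr1h4* peak and at PROX1-only peaks of *Nr1h3* and *Nr3c1*, and 100 bp at a PROX1-only peak of *Esrrg*. Empty lines divide the deposited co-bound peaks into 3 runs, the basis of which is not given in the sources used here. Of the receptor peaks in them, 71 of 96, 7 of 14 and 3 of 10 had HNF4α.

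Seen from HNF4α, the 38 windows held 144 peaks, 76 at liver receptors, 28 at broad or inducible ones and 40 at those of other tissues. Both HDAC3 and PROX1 covered 68.4% of the HNF4α peaks at liver receptors (52 of 76, 57.3 to 77.8) and 37.5% at receptors of other tissues (15 of 40, 24.2 to 53.0). Cover is here a share of the HNF4α peak, the reverse of the rule for co-bound peaks. The narrow HNF4α peaks of *Thrb* and *Nr1i2* described above thus count as covered by both. The share was 60.7% in the broad group and 53.6% in the whole HNF4α list. At *Nr3c2* alone, 6 HNF4α peaks were covered by neither factor, out of 18 in its group. No test was planned for this comparison, and none is given.

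Each HNF4α peak carries a score, which differed with cover in its median. At liver receptors the median score was 59.6 at peaks covered by both and 35.8 at those covered by neither, and at receptors of other tissues it was 50.9 and 35.8. The whole list had medians of 51.8 and 33.5. Of the 22 receptor peaks with a score of 80 or more, 20 were covered by both, and the exceptions were the start-site peak of *Nr1h3* and the peak 7.32 kb into *Nr3c2*. In the whole list 2433 of 2751 peaks with such a score were covered by both.

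**Figure D5:**
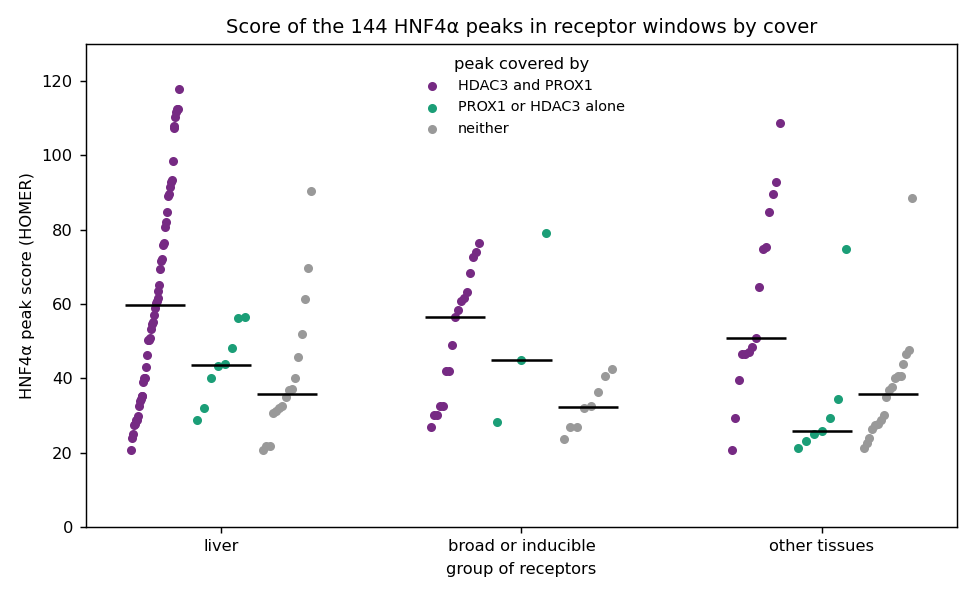
HOMER score (y axis) of the 144 HNF4α peaks in receptor windows, by group (x axis) and by whether HDAC3 and PROX1 both, 1 of them or neither covered the peak, with medians as lines and points sorted by score within each set. In every group the median was highest for peaks covered by both, 59.6, 56.5 and 50.9.

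Motifs of the family were counted in the co-bound receptor peaks and set beside all co-bound peaks. On both strands of the 200 bp peaks, paired AGGTCA hexamers in the same direction, with at most 2 mismatches over 12 bases, were found with 1 base between them (DR1) in 17 of 120 (14.2%) against 13.0% of the 20039 co-bound peaks. With 2 bases between them (DR2) they were in 11 (9.17%) against 6.73%, with 4 (DR4) in 7 (5.83%) against 6.02%, and facing each other with 1 base between them (IR1) in 7 (5.83%) against 3.98%. The exact HNF4 core was in 4 of the 81 co-bound receptor peaks with HNF4α (4.94%, against 4.18% in the whole list), and in 20 (24.7%, against 28.4%) when 1 mismatch was allowed. DR1 and the HNF4 core can overlap, and 1 of the 181 receptor peaks held both. The letters searched were absent from the *Nr3c2*, *Thrb* and *Rxrg* sequences above, which says nothing about what binds there.

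Genes around the receptors were counted in the same way. The shares of all genes to set beside these counts are 38.4% for a co-bound peak and 49.7% for an HNF4α peak. Among 10 other nuclear receptors, most of them active in liver, 9 had a co-bound peak, 82 in all with a median of 6.11 per 100 kb. *Ppara*, the fatty acid receptor of hepatocytes, had 16, of which 10 had HNF4α, *Hnf4a* itself had 8, of which 3 did, and the clock receptor gene *Nr1d1* had 5, of which 0 did. Among 8 coregulators, 7 had one, with 5 co-bound peaks at *Ncor1*, which encodes a corepressor that carries HDAC3. Among 14 target genes of liver receptors, 13 had one and all 14 had an HNF4α peak. *Cyp8b1*, a bile acid synthesis enzyme, had 10 co-bound peaks, 8 with HNF4α, *Cyp3a11*, a target of PXR, had 9 and 8, and *Thrsp*, a target of thyroid hormone, had 4 and 0.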

How the data were processed

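Peak positions of HDAC3, PROX1 and HNF4α were taken from 3 deposited lists. Per the labels and the study's methods, the authors used Bowtie 0.12.7 to map reads on mm9, removed duplicates and pooled replicates. They called peaks with HOMER against IgG and kept those above limits of enrichment and normalized reads, so weaker sites are missing from the lists. The HDAC3 list (21247 peaks of 200 bp) and the PROX1 list (27423) give positions only. The HNF4α list (24253 peaks of 85 to 168 bp) adds the HOMER score of the authors, from 20.3 to 160.2 with median 41.9, on a scale that is not given in the sources used here. Read depth per library is unknown. Co-binding follows the classification the authors deposited, since shared peaks have identical coordinates. By the study's methods, shared peaks overlapped by at least 50% and had to pass a lower limit of normalized reads for the other factor. If the lists follow that rule, a co-bound peak need not have passed the calling limits of both factors. The HDAC3 and PROX1 lists hold 3 empty lines each, which were skipped.

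Genes and start sites of protein-coding transcripts came from GENCODE vM1 on NCBIM37 (mm9), and all peaks lay within its chromosomes. A peak belongs to a window by its centre. Shares carry 95% Wilson intervals, and differences between them were tested with a chi-square test (Pearson) that used no continuity correction. Single peaks named are those within 1 kb of a receptor start site and the co-bound peak of highest HNF4α score per window, and others were chosen after their values were seen. The score of 80, the motif with 5 bases between hexamers and the HNF4 core with 1 mismatch were chosen after seeing the data. The member genes, groups, gene lists and tests were chosen with earlier results of these data known. Overlaps, motif search and tests were tested on simulated data. The draws for the chi-square test were independent, so that check does not cover peaks that share a locus. Python 3.11.15, numpy 2.4.6, scipy 1.17.1, samtools 1.23.1 and pysam 0.24.0 served for this. As alternatives, changes were made to the cover limit, the score, the window, the grouping, the co-bound rule and the correction. The other 26 libraries were not analysed here, although the authors called peaks against the IgG library among them. For its comparison of HNF4α binding, the study also filtered HNF4α peaks on the *Hnf4α* knockout. Whether the deposited HNF4α list carries that filter is not given in the sources used here.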

Additional observations from a re-analysis of the deposited data

How the results depend on the processing

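Of 41 alternatives, 38 were counted as leaving a result as it was, in direction, in side of the threshold or within its error. That tally overstates stability. Counting each peak once could change nothing, since windows shared no peak, and the continuity correction alters only p. Many others left out a gene from the same comparison, 7 of the liver and 7 of other tissues. Gene counts carry no error, and their falls given below were counted among the 38. The share of co-bound receptor peaks with HNF4α was 67.5%, and it fell to 37.5% when 75% of the peak had to be covered. HNF4α peaks are 85 to 168 bp wide, with a median of 156 bp. The narrower ones cannot cover 75% of a 200 bp peak at any position. How much of the fall this makes was not tested. With HNF4α peaks of a score above the median, a smaller list by construction, the share was 46.7%. In promoters or beyond them, a split added after seeing the data, it was 68.8% and 67.3%. The difference between liver receptors and those of other tissues ranged from 1.47 to 20.4 points over its alternatives, with p from 0.12 to 0.90, and stayed positive in each. The receptors with a co-bound peak numbered 20 to 22, those with an HDAC3-only peak 6 to 9 and those with an HNF4α peak 19 to 27. The shares over all genes given above belong to the main setting, so they are no measure for the counts at changed settings. No paired analysis was possible because the lists pool the replicates, and for the same reason no replicate could be left out. The number of peaks limits the precision, and the thresholds of peak calling mean that a gene without a listed peak may still be bound below them. Where a window holds several genes, a peak was not assigned to one of them.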
